A study of Arabidopsis thaliana with 6 samples.

Results

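The amino acid permease genes AAP1 to AAP8 and the lysine histidine transporter genes LHT1 and LHT2 were followed in leaves of Arabidopsis thaliana. They are 10 genes, found in the deposited count table by their locus codes, and all 10 codes had a row among its 33602 rows. The family was picked by gene name but with the mutant against wild-type differences of these libraries already known. Its values in that comparison are therefore a description, carry no test of their own and support nothing. The tested libraries came from leaves of pub2pub4 plants, a double mutant of the U-box ubiquitin ligase genes PUB2 and PUB4, under mock conditions (n = 3). Wild-type plants under mock conditions were set against them (n = 3). All plants were 25 days old and grown with 16 h of light and 8 h of dark. The labels do not state the mutant alleles, what the mock treatment was or whether a library came from 1 plant or a pool. The p-values below therefore measure the spread between these libraries, which may be technical.

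Amino acids move between leaf cells, xylem and phloem through plasma membrane carriers. The AAP and LHT proteins are proton-coupled importers of the amino acid and auxin permease family, with broad and overlapping substrates. In Arabidopsis, AAP1 takes up neutral amino acids and glutamate in roots and embryos, AAP2 acts in transfer between xylem and phloem, and LHT1 imports amino acids into leaf mesophyll and root epidermis. Loss of LHT1 is known to alter salicylic acid dependent disease resistance.

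The pub2pub4 libraries held 20572341 to 20732799 expected counts and the wild-type libraries 20506882 to 20595904, where an expected count is an estimated number of reads that need not be whole. Levels are given as CPM, counts scaled to library size by TMM, for comparisons of 1 gene between libraries, and as TPM, which also divides by the deposited gene length, for comparisons between genes. PUB2 averaged 0.504 ± 0.108 CPM in pub2pub4 and 9.05 ± 1.44 CPM in wild type, and PUB4 averaged 3.22 ± 0.746 CPM in pub2pub4 and 21.03 ± 2.36 CPM in wild type (SD, n = 3 each). Among leaf mesophyll markers RBCS-1A, LHCB1.2 and LHCB2.1 stood at 13392, 1827 and 508 CPM in pub2pub4 and 12974, 2484 and 691 CPM in wild type. The seed markers CRA1 and OLEO1 did not exceed 0.196 CPM in any library. In leaf RNA from whole tissue, fewer cells of a type and less RNA per cell cannot be told apart.

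Of the 10 genes, AAP1 was the one with a called difference, at 1.84 times the wild-type level in pub2pub4. LHT1 stood at 0.477 times the wild-type level, with a wide spread, and did not reach the called set. LHT2, AAP3, AAP6 and AAP7 were 1.37 to 1.43 times as high in pub2pub4 as in wild type by the fitted folds, AAP4 1.25 times, and AAP2 and AAP5 1.08 and 1.04 times. AAP8 had no count in any library. A gene is called here when its adjusted p is under 0.05 in edgeR's quasi-likelihood test over all 19019 genes with enough counts. Of those genes 4.46% were called, 2.49% higher and 1.97% lower in pub2pub4. Scaled by library totals alone, 426 genes were higher and 443 lower, so the balance of directions turned with the scaling. Among the members 9 had enough counts, 1 was called higher and 0 lower. Since the family was picked with this comparison known, nothing is read from that count.

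AAP1 (AT1G58360, chromosome 1, 21676388 to 21680519, plus strand, TAIR10.1) has 6 exons and a coding sequence of 1458 bases. It had 107.8, 95.1 and 78.5 CPM in pub2pub4 libraries 1, 2 and 3, against 50.2, 47.7 and 55.0 CPM in wild-type libraries 1, 2 and 3. All mutant libraries lay above all wild-type libraries, with a gap between 55.0 and 78.5 CPM. Its mean was 93.8 ± 14.7 CPM in pub2pub4 and 51.0 ± 3.72 CPM in wild type (SD, n = 3 each), and its log2 fold change was 0.88 ± 0.12 (SE). Among all tested genes 4.87% had a larger change in size. The call was lost without wild type 1, without wild type 2 and without pub2pub4 2, where the log2 fold change was 0.87, 0.83 and 0.87, and it was kept without each of the other 3 libraries.

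AAP8 (AT1G10010, chromosome 1, 3265886 to 3268823, plus strand, TAIR10.1), which the annotation describes as a carrier for import into developing seeds, had 0 counts in all 6 libraries. A count of 0 allows up to 3 counts per library, or 0.145 to 0.146 CPM, so AAP8 was not detectable at this depth. AAP8 is the member closest to AAP1, with 76.5% identical bases over 1431 aligned coding bases. The stretch of 60 coding bases within 1 exon in which this pair is most alike is shown to let a reader see how far reads of AAP1 and AAP8 differ. The capitals mark the 6 bases that differ, and the stretches lie at chr1:21679612-21679671 for AAP1 and chr1:3267924-3267983 for AAP8, both on the plus strand (TAIR10.1).
AAP1: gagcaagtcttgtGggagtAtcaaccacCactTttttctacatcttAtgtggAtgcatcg
AAP8: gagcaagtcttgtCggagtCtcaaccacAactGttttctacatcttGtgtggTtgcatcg
The longest run of identical bases between these coding sequences was 19. Across the longest annotated transcripts of the 10 genes, 0 stretches of 50 bases were shared with a transcript of any other gene, on either strand. The labels do not state the read length.

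LHT1 (AT5G40780, chromosome 5, 16323567 to 16327382, plus strand, TAIR10.1) was the member with the largest change in size, and the one with a negative sign. It had 32.1, 24.7 and 10.8 CPM in pub2pub4 libraries 1, 2 and 3, against 56.7, 52.9 and 32.4 CPM in wild-type libraries 1, 2 and 3. The groups did not overlap in CPM, but pub2pub4 1 and wild type 3 were close, and in TPM, at 25.9 and 25.6, these 2 libraries overlapped. Library 3 was the lowest of its group in both genotypes. Its mean was 22.5 ± 10.8 CPM in pub2pub4 and 47.3 ± 13.1 CPM in wild type (SD, n = 3 each), with a log2 fold change of -1.07 ± 0.45 (SE). LHT1 entered the called set when the replicate number was fitted as a block, with a log2 fold change of -1.15 ± 0.15 (SE), although the numbers were not taken as pairs.

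LHT2 (AT1G24400, chromosome 1, 8651407 to 8653915, minus strand, TAIR10.1), annotated as a carrier of the anther tapetum, differed in the other direction from its relative LHT1. It had 12.7, 13.5 and 11.2 CPM in pub2pub4 libraries 1, 2 and 3, against 9.73, 7.93 and 8.58 CPM in wild-type libraries 1, 2 and 3. All mutant values were above all wild-type values, and the log2 fold change was 0.51 ± 0.12 (SE). LHT2 was outside the called set, although DESeq2, the fit with no filter on low counts and the fit without pub2pub4 3 called it. The coding sequences of LHT1 and LHT2 had 71.6% identical bases over 1326 aligned bases, with a longest identical run of 41. The most alike stretch of 60 bases of these relatives with opposite signs is shown with the 4 differing bases in capitals, from chr5:16325203-16325262 on the plus strand for LHT1 and chr1:8653412-8653471 on the minus strand for LHT2.
LHT1: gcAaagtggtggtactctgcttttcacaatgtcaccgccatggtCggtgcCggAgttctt
LHT2: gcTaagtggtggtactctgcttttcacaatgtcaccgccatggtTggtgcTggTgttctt

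**Figure D1:**
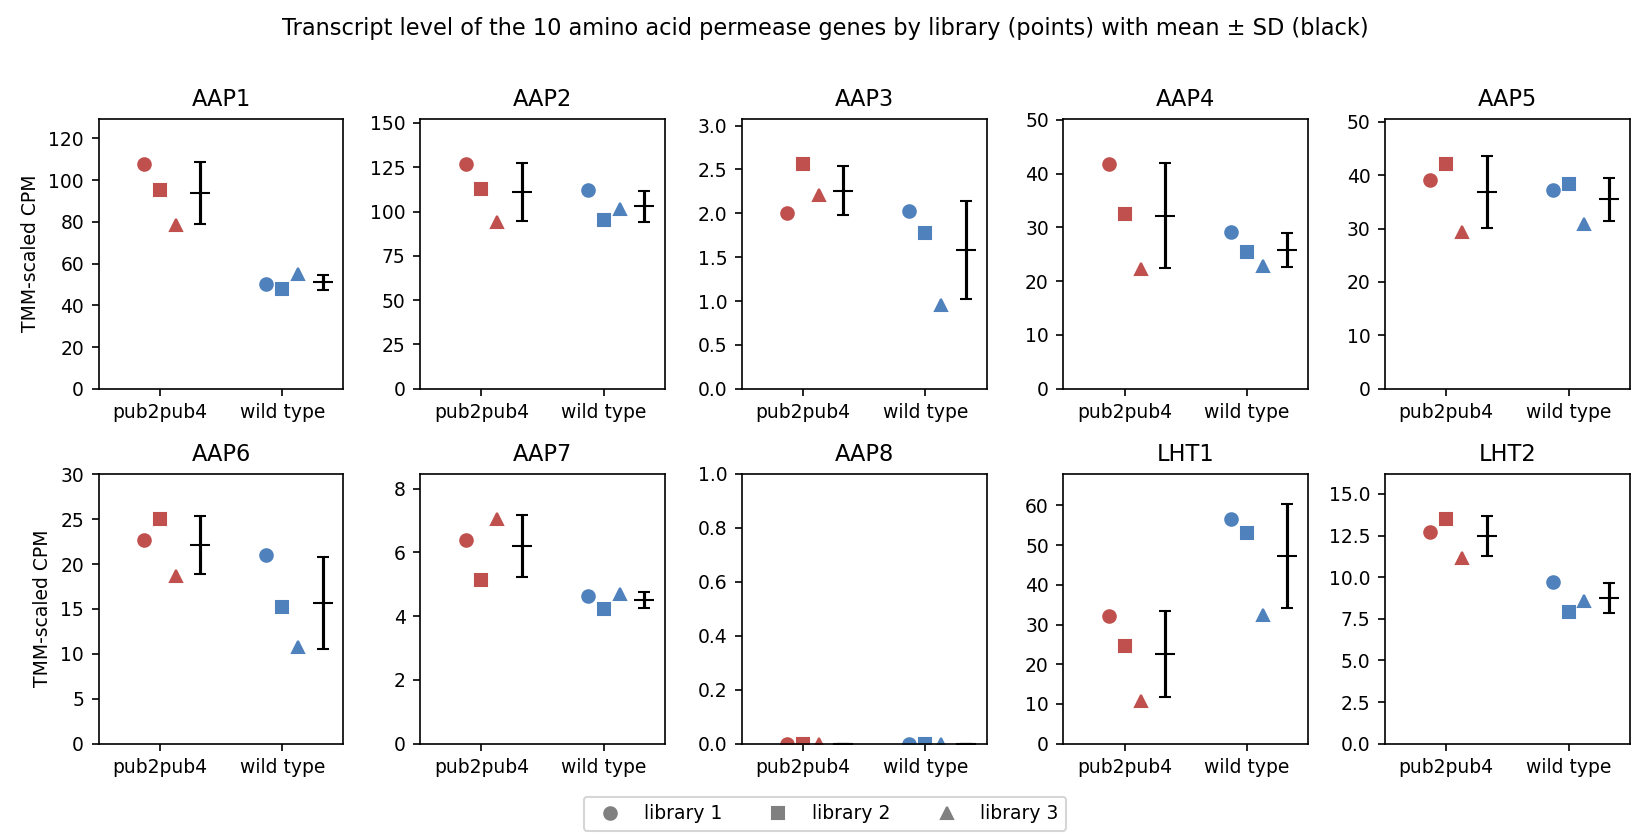
TMM-scaled CPM (y axis, linear from 0, own scale per panel) of each of the 10 genes in the 3 pub2pub4 and the 3 wild-type libraries, with the mean and SD in black and the library number as the point shape. AAP1 lies between 78.5 and 107.8 CPM in pub2pub4 and between 47.7 and 55.0 CPM in wild type, LHT1 is lowest in library 3 of each genotype, and AAP8 is at 0 throughout.

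AAP2 (AT5G09220), the carrier of transfer between xylem and phloem, was the most abundant member and differed little between the genotypes. It had 127.0, 112.4 and 94.3 CPM in pub2pub4 libraries 1, 2 and 3, against 112.3, 95.0 and 101.4 CPM in wild-type libraries 1, 2 and 3. The groups overlapped, and the log2 fold change was 0.11 ± 0.11 (SE). AAP4 (AT5G63850), which the annotation describes as lowered by dehydration, is its closest relative with 82.2% identical coding bases. AAP4 had 41.8, 32.5 and 22.3 CPM in pub2pub4 libraries 1, 2 and 3, against 29.1, 25.4 and 22.9 CPM in wild-type libraries 1, 2 and 3. Its mutant libraries spread around the wild-type range, from below its lowest value to above its highest, with a log2 fold change of 0.32 ± 0.23 (SE).

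AAP6 (AT5G49630), a high-affinity carrier that also takes aspartate and is thought to act in uptake from xylem, had 22.6, 25.1 and 18.6 CPM in pub2pub4 libraries 1, 2 and 3. In wild-type libraries 1, 2 and 3 it had 21.0, 15.3 and 10.8 CPM. The groups overlapped through wild type 1, and the log2 fold change was 0.50 ± 0.25 (SE). AAP3 (AT1G77380), a carrier of basic amino acids, had 2.01, 2.57 and 2.21 CPM in pub2pub4 libraries 1, 2 and 3, against 2.02, 1.77 and 0.959 CPM in wild-type libraries 1, 2 and 3. Its groups also overlapped, with wild type 3 the lowest value, and the log2 fold change was 0.51 ± 0.29 (SE). AAP3 overlaps the gene AT1G77370 on the opposite strand over 15 bases, and that gene averaged 38.8 CPM in wild type. The labels do not state how strand was used in counting, so reads of that stretch cannot be told apart.

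AAP5 (AT1G44100), another carrier that takes basic amino acids, had 39.1, 42.1 and 29.3 CPM in pub2pub4 libraries 1, 2 and 3, against 37.1, 38.2 and 30.9 CPM in wild-type libraries 1, 2 and 3. The groups overlapped almost fully, with library 3 lowest in each, and the log2 fold change was 0.06 ± 0.15 (SE). Its sign turned without wild type 3 (-0.034) and without pub2pub4 2 (-0.053). AAP5 overlaps the microRNA gene MIR5024 on the same strand over 180 bases, so strand cannot separate reads of that stretch. No level of MIR5024 was available. AAP7 (AT5G23810), the most distant AAP gene and annotated as a nonfunctional carrier, had 6.40, 5.13 and 7.06 CPM in pub2pub4 libraries 1, 2 and 3, against 4.63, 4.23 and 4.70 CPM in wild-type libraries 1, 2 and 3. All its mutant values were above all its wild-type values, and the log2 fold change was 0.46 ± 0.15 (SE). With AAP1, LHT1 and LHT2 this makes 4 of the 9 tested members whose groups did not overlap in CPM, beside 26.2% of all tested genes.

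The order of the members by level was given per length, in TPM. In pub2pub4 AAP2 was first at 82.9 ± 13.6 TPM and AAP1 second at 72.1 ± 12.5 TPM (SD, n = 3 each), and these neighbours overlapped between libraries. AAP4, AAP5, LHT1 and AAP6 followed at 23.4, 22.9, 17.8 and 17.2 TPM, each overlapping the next. LHT2 at 9.52, AAP7 at 5.26 and AAP3 at 1.60 TPM were each apart from their neighbours in that order. In wild type AAP2 was first at 76.8 ± 7.13 TPM, and AAP1 at 39.2 ± 2.97 and LHT1 at 37.3 ± 10.4 TPM came next and overlapped (SD, n = 3 each). AAP5 and AAP4, at 22.1 and 18.7 TPM, overlapped, and AAP6, LHT2, AAP7 and AAP3, at 12.2, 6.70, 3.85 and 1.13 TPM, were each apart. By these means LHT1 stood at rank 5 of the 10 genes in pub2pub4 and at rank 3 in wild type. In the single library pub2pub4 3 it lay just below LHT2, at 8.45 against 8.46 TPM.

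The makeup of the family in TPM differed between the genotypes mainly in AAP1 and LHT1. AAP1 made up 28.4%, 27.9% and 29.5% of the family's TPM in pub2pub4 libraries 1, 2 and 3, against 16.1%, 17.1% and 21.3% in wild-type libraries 1, 2 and 3. LHT1 made up 8.68%, 7.42% and 4.18% in pub2pub4, against 18.6%, 19.5% and 12.8% in wild type, in the same order of libraries. The groups did not overlap for either share. The smaller share of LHT2 did not overlap either. It was 3.33%, 3.94% and 4.19% in pub2pub4, against 3.10%, 2.83% and 3.30% in wild type. Within a library the ratio of AAP1 to AAP2 was 0.876, 0.872 and 0.858 in pub2pub4, against 0.461, 0.518 and 0.560 in wild type, so it varied little within the mutant although both levels did. The family's summed level was 298.2, 257.7 and 202.1 TPM in pub2pub4, against 242.4, 212.8 and 199.0 TPM in wild type, and these sums overlapped.

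**Figure D2:**
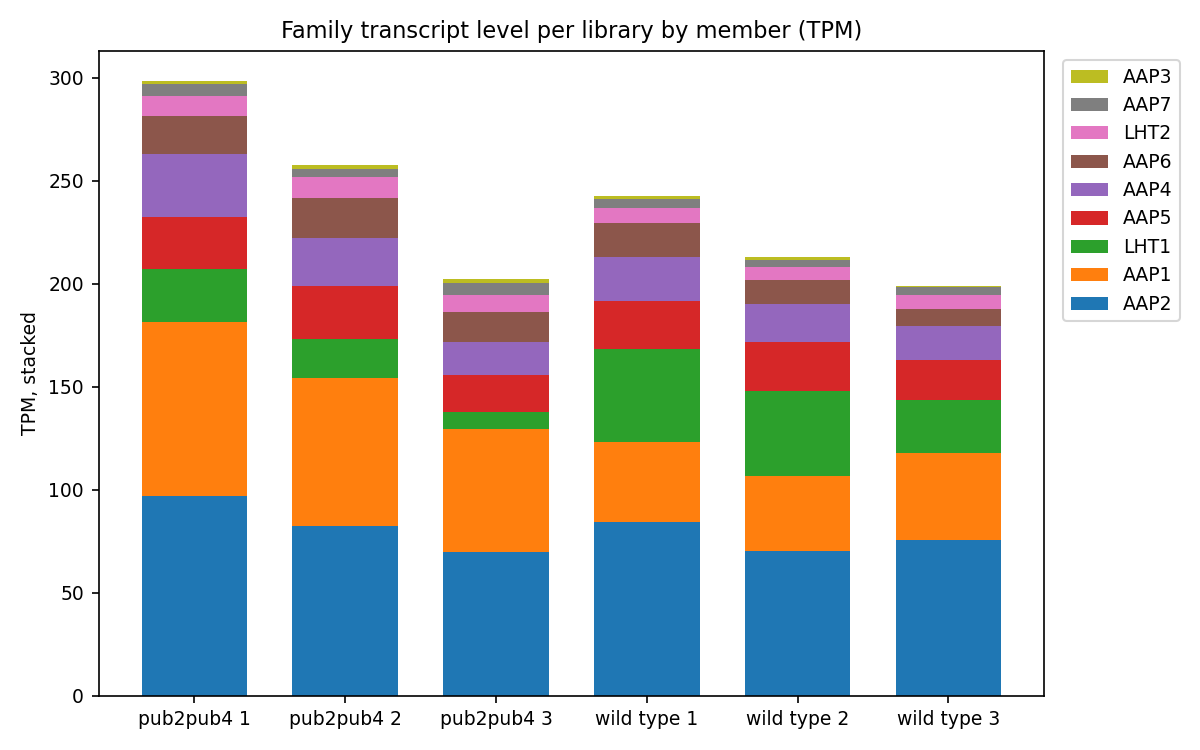
Summed TPM of the family (y axis) in each of the 3 pub2pub4 and 3 wild-type libraries (x axis), stacked by member, with AAP8 left out at 0. The AAP1 block is 59.7 to 84.7 TPM in pub2pub4 and 36.4 to 42.3 TPM in wild type, and the LHT1 block is 8.45 to 25.9 TPM in pub2pub4 and 25.6 to 45.0 TPM in wild type.

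Library 3 was often the lowest of its group. The library pub2pub4 3 was the lowest of its group for 7 of the 9 tested members, beside 35.9% of all tested genes, and wild type 3 was the lowest of its group for 5 of the 9, beside 36.8%. The exceptions in pub2pub4 were AAP3 and AAP7. LHT1 had the widest spread in the mutant, with a coefficient of variation of 47.9% in pub2pub4 and 27.6% in wild type. That of LHT2 was 9.52% in pub2pub4 and 10.5% in wild type, and that of AAP1 15.7% in pub2pub4 and 7.30% in wild type. Markers of phloem companion cells, the site of some AAP carriers, summed to 523 to 558 CPM in pub2pub4 and 487 to 555 CPM in wild type. Of those 3 markers the sulfate carrier gene SULTR2;1 rose, with 144.1 ± 11.7 CPM in pub2pub4 and 85.6 ± 4.20 CPM in wild type (SD, n = 3 each, edgeR adjusted p 0.00616), while SUC2 and AHA3 had log2 changes of -0.11 and -0.18 and were not called. The 4 phloem parenchyma and sieve element markers and the 4 xylem markers gave 0 calls by edgeR, with 1 gene of each list, SEOB and XCP2, at an unadjusted p under 0.05. DESeq2 called SEOB, at 54.0 ± 1.83 CPM in pub2pub4 and 39.5 ± 7.42 CPM in wild type (SD, n = 3 each), but not XCP2. Some genes outside the family also set pub2pub4 3 apart from the other mutant libraries. ATNAC2, a transcription factor gene of leaf senescence, had 4.82, 3.11 and 0.343 CPM in pub2pub4 libraries 1, 2 and 3, against 0.578, 0.541 and 0.815 CPM in wild-type libraries 1, 2 and 3, and the light-harvesting gene LHCB1.2 had 1472, 1543 and 2465 CPM in pub2pub4, against 2319, 2605 and 2528 CPM in wild type. ATNAC2 was called by DESeq2 but not by edgeR (adjusted p 0.256). The senescence marker SAG12 was at 0.287 CPM in pub2pub4 1 and at 0 in the other 5 of the 6 libraries. The part of cell type shares and of senescence in the members' values was not tested.

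**Figure D3:**
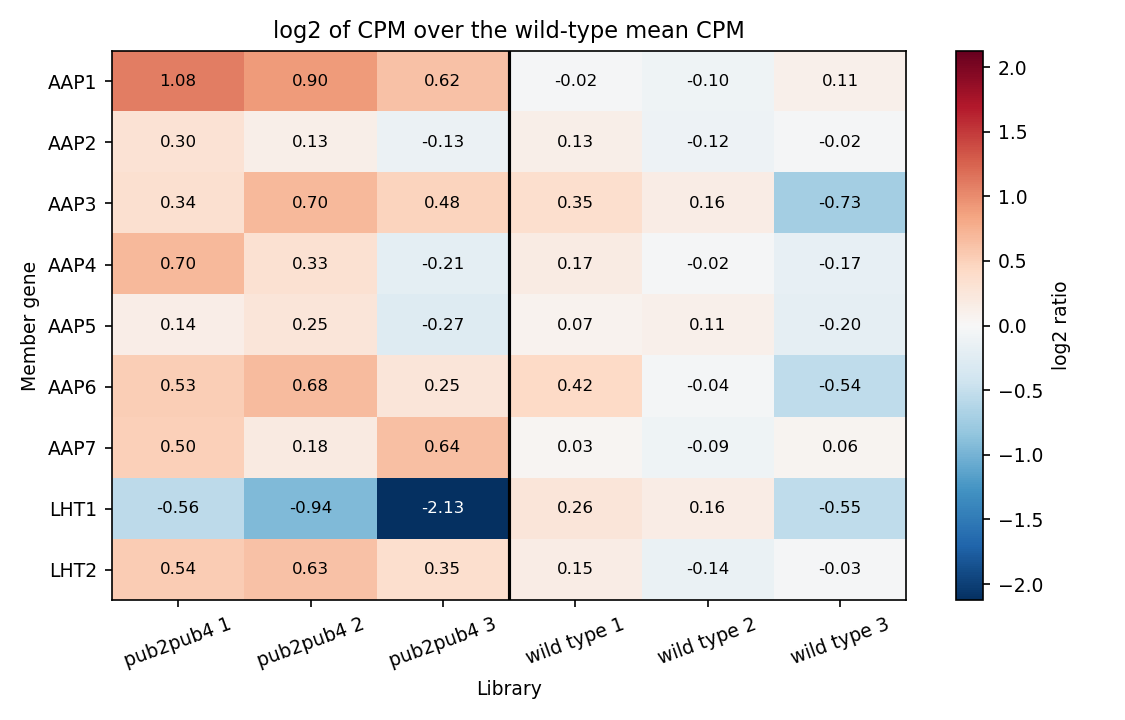
log2 of each library's CPM over the wild-type mean CPM (colour and printed value) for the 9 members with counts (rows) in the 6 libraries (columns, pub2pub4 left of the line, wild type right). AAP1, AAP3, AAP6, AAP7 and LHT2 are positive in all 3 mutant libraries, LHT1 is negative in all 3 down to -2.13 in pub2pub4 3, and AAP2, AAP4 and AAP5 turn negative in pub2pub4 3.

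The 250 bases upstream of the annotated start of AAP1, LHT1 and LHT2 are shown because these 3 genes led the differences and LHT1 went against the other 2. Motifs were searched on either strand as ACGTG, the core of abscisic acid response elements, TTGAC, the W box core bound by WRKY factors, and CCGAC, the core of dehydration response elements. Matches are in capitals, and the only overlap between motifs is that of GTCGG and GTCAA in LHT2, which share 1 base. The regions are chr1:21676138-21676387 on the plus strand for AAP1, chr5:16323317-16323566 on the plus strand for LHT1 and chr1:8653916-8654165 on the minus strand for LHT2, in the TAIR10.1 genome with the RefSeq annotation.
AAP1: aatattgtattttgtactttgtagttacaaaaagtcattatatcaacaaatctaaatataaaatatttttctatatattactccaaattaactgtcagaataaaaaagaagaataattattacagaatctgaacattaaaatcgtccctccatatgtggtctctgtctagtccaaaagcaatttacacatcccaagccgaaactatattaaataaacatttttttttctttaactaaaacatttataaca
LHT1: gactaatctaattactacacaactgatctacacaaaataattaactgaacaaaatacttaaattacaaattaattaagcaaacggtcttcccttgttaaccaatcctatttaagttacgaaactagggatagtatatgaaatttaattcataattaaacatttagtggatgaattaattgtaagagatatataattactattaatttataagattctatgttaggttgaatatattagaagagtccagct
LHT2: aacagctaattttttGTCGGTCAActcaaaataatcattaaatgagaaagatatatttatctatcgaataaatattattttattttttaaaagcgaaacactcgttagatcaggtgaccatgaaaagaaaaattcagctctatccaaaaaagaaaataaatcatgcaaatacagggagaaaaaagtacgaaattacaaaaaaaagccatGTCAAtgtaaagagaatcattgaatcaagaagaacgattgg
AAP1 and LHT1 held none of these letters in this window, and LHT2 held CCGAC in 1 place and TTGAC in 2 places. Over the 10 members, TTGAC was present for 6, ACGTG for 1 and CCGAC for 1. Among 27443 upstream regions of the same length of protein-coding genes, 44.9% held TTGAC, 22.9% held ACGTG and 12.0% held CCGAC.

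Other amino acid carriers, none of them among the 10 genes, were compared in the same all-gene fit. The list under this name also holds the auxin importers AUX1, LAX1, LAX2 and LAX3 of the permease family, and the glutamine dumper genes. Of 88 listed genes 59 had enough counts, 5 rose, 1 fell and 53 were not called, with a median log2 change of 0.19, beside a median of 0.01 over all tested genes. Most of the calls were in the remaining permeases of the family, where 4 of 18 tested genes rose, 0 fell and 14 were not called. Of all tested genes 2.49% were called higher and 1.97% lower. The lists were chosen with earlier results of these data known, so their counts are a description. GAT1 (AT1G08230), a carrier of gamma-aminobutyric acid, had 18.4, 14.8 and 12.0 CPM in pub2pub4 libraries 1, 2 and 3, against 7.37, 9.30 and 7.19 CPM in wild-type libraries 1, 2 and 3. It rose by a log2 change of 0.92 ± 0.18 (SE, adjusted p 0.0319), with no overlap between the groups. LAX3 (AT1G77690), an auxin importer, rose by 0.59 ± 0.12 (SE, adjusted p 0.0361). AT5G65990 and AT1G25530, annotated only as transmembrane amino acid transporter family proteins, rose by 0.59 ± 0.10 and 0.89 ± 0.20 (SE, adjusted p 0.0207 and 0.0464). AT5G65990 was the more abundant of this pair, at 69.4 ± 7.40 CPM in pub2pub4 and 46.1 ± 4.06 CPM in wild type (SD, n = 3 each). Of the 6 fits that each drop a library, AT5G65990 was called in 3, GAT1 in 2, LAX3 in 1 and AT1G25530 in 0. No gene of the whole list was called without wild type 1, wild type 2 or pub2pub4 2. Of that list 2, 2 and 10 genes were called without wild type 3, pub2pub4 1 and pub2pub4 3.

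Among cationic amino acid transporters CAT5 fell and 7 of 8 tested genes were not called. CAT5 averaged 1.06 ± 0.199 CPM in pub2pub4 and 2.36 ± 0.299 CPM in wild type (SD, n = 3 each). The difference on the log2 scale was -1.16 ± 0.24 (SE), with an edgeR adjusted p of 0.0361. Among 29 tested UMAMIT genes, which encode mostly amino acid exporters, UMAMIT36 rose, 0 fell and 28 were not called. UMAMIT36 had 2.20, 0.987 and 0.932 CPM in pub2pub4 libraries 1, 2 and 3, against 0.0482, 0.246 and 0.336 CPM in wild-type libraries 1, 2 and 3, so both groups were low but did not overlap (log2 change 2.68 ± 0.59 SE, adjusted p 0.0451). The UMAMIT36 call was lost in the fit with a replicate block. Dropping each library in turn left CAT5 called in 0 fits and UMAMIT36 in 1 fit. Of 4 tested glutamine dumper genes, which promote amino acid export, 0 were called by edgeR, 1 at an unadjusted p under 0.05, and DESeq2 called 0. GDU3 and GDU5 had the smallest p-values, with log2 changes of 0.64 and 0.44 (adjusted p 0.0701 and 0.370).

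Genes of nitrate reduction and of glutamine, glutamate, asparagine and aspartate synthesis were compared because they make the substrates that the permeases carry. Of 22 tested genes, 3 rose, 1 fell and 18 were not called, beside 2.49% called higher and 1.97% lower of all tested genes. The median log2 change of the list was 0.20. Scaled by library totals alone, 2 rose and 3 fell. The called genes were divided within glutamine synthetase. GLN1-3 rose, with 63.9, 61.4 and 50.2 CPM in pub2pub4 libraries 1, 2 and 3, against 36.3, 33.5 and 34.7 CPM in wild-type libraries 1, 2 and 3 (log2 change 0.75 ± 0.10 SE, adjusted p 0.0120). GLN1-4, another cytosolic form, fell, with 4.87 to 5.53 CPM in pub2pub4, against 8.68 to 12.2 CPM in wild type (log2 change -1.01 ± 0.15 SE, adjusted p 0.0150). Neither gene overlapped between the groups. NIR1, for nitrite reductase, averaged 353.4 ± 40.7 CPM in pub2pub4 and 233.8 ± 4.77 CPM in wild type (SD, n = 3 each, log2 change 0.60 ± 0.09 SE, adjusted p 0.0150). ASN2, for an asparagine synthetase, rose by 0.58 ± 0.13 (SE, adjusted p 0.0476). When libraries were dropped singly, GLN1-3 stayed called in 4 fits, GLN1-4 and NIR1 in 3 and ASN2 in 1, and of this list 1 gene was called without wild type 1 and 0 without wild type 2 or pub2pub4 2.

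**Figure D4:**
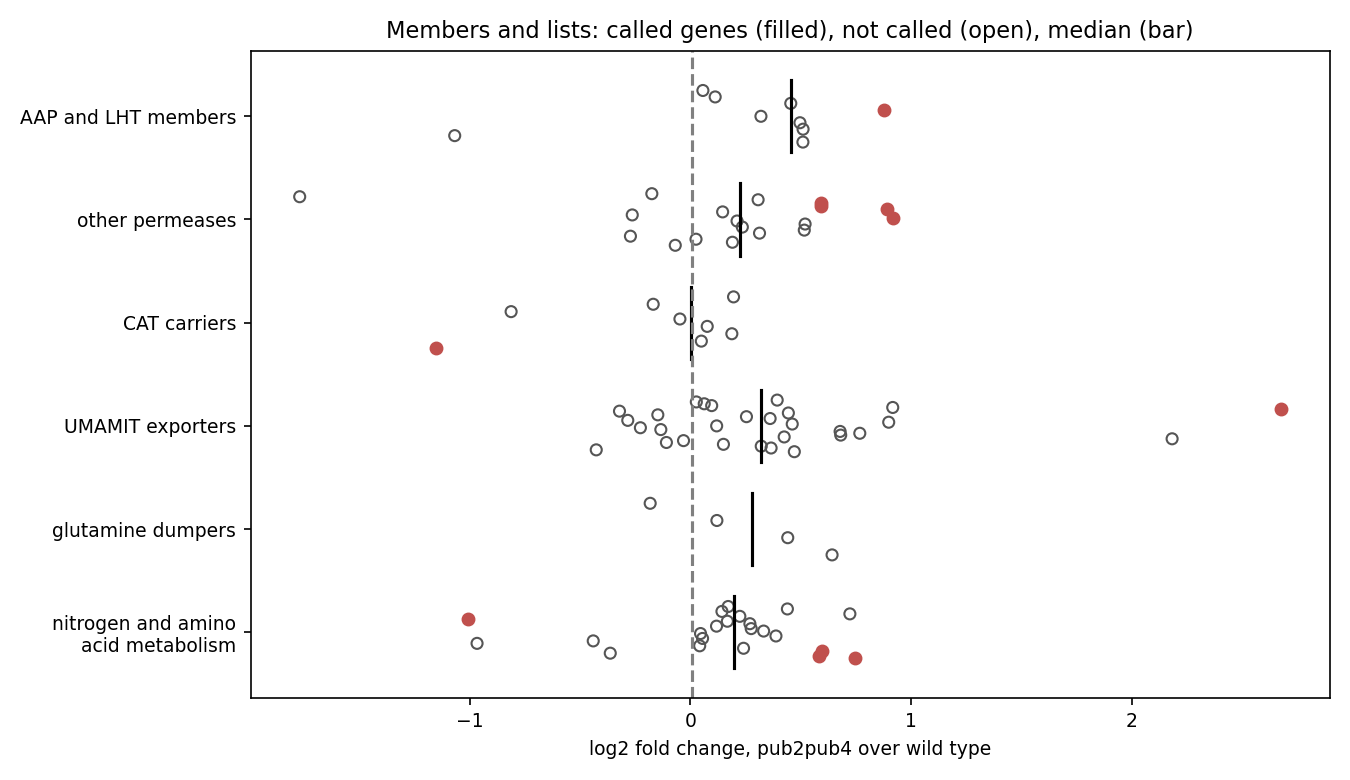
log2 fold change of pub2pub4 over wild type (x axis) for tested members and for genes of 5 lists (rows), with called genes filled, genes not called open, the median of each list as a bar and the median of all tested genes as a dashed line. AAP1 is the filled point of the member row at 0.88 and LHT1 its open point at -1.07, and UMAMIT36 lies farthest right at 2.68.

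The genes whose levels followed AAP1 most closely were taken by the smallest mean absolute difference in centred log2 CPM over the 6 libraries, among genes with a symbol and a mean of at least the median of tested genes, 16.6 CPM. They were VTE1 (0.05), a tocopherol cyclase gene, IPMI2 (0.06), for a subunit of isopropylmalate isomerase, mMDH2 (0.06), for a malate dehydrogenase, GSTU7 (0.07), a glutathione transferase gene, and NPF6.2 (0.07), a nitrate transporter gene. NPF6.2 had 85.3, 77.7 and 66.1 CPM in pub2pub4 libraries 1, 2 and 3, against 44.6, 41.6 and 41.3 CPM in wild-type libraries 1, 2 and 3. Among pairs of members the closest were AAP3 with AAP6 and AAP2 with AAP5, at 0.14 each.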

How the data were processed

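Leaf messenger RNA was sequenced on an Illumina system, per the labels' protocols, in 3 pub2pub4 and 3 wild-type libraries. The authors deposited 1 table of expected counts per gene with a length per gene. The tools named in the submitters' processing notes are TopHat2 2.1.0 and RSEM 2.1.30, and the build named is TAIR10. No role is given for them, and strand use and annotation release are not stated.

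The deposited expected counts were rounded and fitted in R 4.3.3 with edgeR 4.0.16. Genes were kept by filterByExpr (minimum count 10, minimum total 15), scaled by TMM and tested by the quasi-likelihood method (robust, with genotype as sole term), with Benjamini-Hochberg adjustment over 19019 genes. Each SE was derived from the log2 fold change and its F value. TPM was computed from the expected counts and the deposited length. The fit was tried on simulated counts drawn with no library effect, which cannot show how single libraries move the calls. Positions and sequences come from the TAIR10.1 genome and its RefSeq annotation, not from the table. Coding sequences were aligned globally with Biopython.

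All 10 members are named, and of each carrier and metabolism list the called genes (at most 4), or the 2 with the smallest p where none was called. Cell type markers were named outside this rule, and those of epidermis, guard cells and roots are not shown. Of these, edgeR called 0, and DESeq2 called the guard cell gene KAT1. The members, lists and naming rule were chosen with earlier results of these data known. The closing section gives the effect of the alternatives: other scalings and filters, no rounding, DESeq2 1.42.0, limma-voom (limma 3.58.1), the replicate number as a block, and each library left out. The labels give the replicate numbers only as names, so the numbers were not taken as pairs. Same-numbered libraries of the 2 genotypes had correlations of deviations of 0.13, 0.06 and 0.15 over tested genes. Those of libraries with unlike numbers ran from -0.18 to 0.08.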

Additional observations from a re-analysis of the deposited data

How the results depend on the processing

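Single libraries set how many genes were called. With 1 library left out, all genes called ranged from 86 to 1210 (848 with all 6 libraries), members called from 0 to 2 (1), other amino acid carriers called from 0 to 10 (6) and nitrogen and amino acid metabolism genes called from 0 to 6 (4). Members called were 0 without wild type 1, wild type 2 or pub2pub4 2 and 2 without pub2pub4 3. DESeq2 called 1455 genes, 2 members, 11 other carriers and 9 metabolism genes. Under the stricter filter (5 CPM in 3 libraries) 3 other carriers were called, with fewer genes tested. With no filter 2 members, AAP1 and LHT2, were called. With the replicate block 1066 genes and 2 members, AAP1 and LHT1, were called. In deviations from the group mean, 5 of the 6 libraries correlated best with their own number, which is a weak hint from the data and not from the design. The exception was wild type 2 (0.08 with pub2pub4 1, 0.06 with pub2pub4 2). The 6 best matches are not separate, since each correlation was read in both directions and the deviations sum to 0 within a group. Same-number correlations were only 0.06 to 0.15. The balance of directions also moved: 474 genes were higher and 374 lower in pub2pub4, against 426 and 443 with library totals alone and 489 and 577 with the replicate block. Of the metabolism genes 2 were higher and 3 lower with library totals alone, and 3 higher and 3 lower with the replicate block. The cause was not tested. The log2 change of AAP5 ranged from -0.053 to 0.193 with 1 library left out, below 0 without wild type 3 and without pub2pub4 2, and the other tested members kept their sign under the alternatives that tested them (AAP3 was not tested under the stricter filter). AAP4 and AAP5 exchanged places in pub2pub4 when levels were not divided by length. At this depth AAP8 could not be detected, and AAP3, with 20 to 52 counts per library, had the fewest counts of the other members.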

Other observations

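Some nitrogen-related genes outside the naming rule, picked after their values were seen, had lower values in the mutant, as LHT1 did. Most genes of their lists had the other sign. Of 18 tested other permeases 13 had a positive log2 change, and of 22 tested metabolism genes 18 did. LHT2 also had a positive one, at 0.51. LHT7 (AT4G35180), another gene of the lysine histidine transporter group, had 1.15, 2.61 and 1.77 CPM in pub2pub4 libraries 1, 2 and 3, against 5.93, 9.99 and 2.97 CPM in wild-type libraries 1, 2 and 3 (log2 change -1.77 ± 0.51 SE, edgeR adjusted p 0.119). GLN1-1, for a cytosolic glutamine synthetase, had 90.6, 76.6 and 43.4 CPM in pub2pub4, against 144.7, 165.1 and 102.0 CPM in wild type (log2 change -0.97 ± 0.32 SE, edgeR adjusted p 0.187). The groups did not overlap for either gene, library 3 was the lowest of the wild type for both and of the mutant for GLN1-1, and both were called in the fit with a replicate block. The exporter genes UMAMIT18 and UMAMIT29 had the reverse sign, with library 3 the lowest of the mutant. UMAMIT18 had 16.3, 14.5 and 8.29 CPM in pub2pub4, against 7.03, 7.04 and 6.61 CPM in wild type. UMAMIT29 had 7.31, 9.18 and 1.62 CPM in pub2pub4, against 0.723, 1.28 and 1.97 CPM in wild type. UMAMIT18 did not overlap between the groups and UMAMIT29 did, and neither was called by edgeR (adjusted p 0.0835 and 0.169). The fit with a replicate block called neither of them, while DESeq2 called UMAMIT18, UMAMIT29 and LHT7 but not GLN1-1.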
